A study of Mus musculus with 6 samples.

Results

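The interferon gamma GTPases, the regulatory factors Irf1 and Irf8 and the receptor chains Ifngr1 and Ifngr2 were described across 6 arrays of separated mouse T cells. The members were Iigp1, Irgm1, Igtp, Gbp2, Gbp3, Irf1, Irf8, Ifngr1 and Ifngr2, and every probe set carrying one of these symbols in the platform annotation was taken. This gave 13 probe sets for the 9 genes, of 22690 in the value table. Iigp1, Gbp2, Irf8 and Ifngr2 each had a pair of probe sets and the other members had 1 each, and all 13 carried a single symbol. The rule uses gene symbols and no measured value.

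Interferon gamma binds a receptor built from Ifngr1, the chain that holds the ligand, and Ifngr2, the chain that completes the signalling complex. The kinases Jak1 and Jak2 are bound to these chains and start the signal inside the cell. Target genes carry gamma-activated sites in their DNA, and newly made Irf1 extends the response through interferon-stimulated response elements. Prominent products in the mouse are the immunity-related GTPases and the guanylate binding proteins, which gather on vacuoles that hold intracellular parasites and bacteria. Iigp1 is an effector GTPase that coats such vacuoles, while Irgm1 and Igtp sit on the cell's own membranes and keep the effector GTPases inactive there. Irgm1 is also known for protecting activated CD4+ T cells from interferon gamma.

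The arrays carried total RNA of CD4+CD25+ cells taken from mice with magnetic separation, a fraction enriched for Foxp3+ regulatory T cells (Treg). The knockout group (3 arrays) came from mice of genotype fl-DNMT1/Foxp3cre, which carry a floxed gene for the maintenance DNA methyltransferase Dnmt1 and a Cre recombinase driven by Foxp3, so that deletion is directed to cells that express Foxp3. The wild type group (3 arrays) came from C57BL6 mice, and the strain label of both groups was C57BL6. The wild type mice are not labelled as carrying the Cre or the floxed allele, so the deletion and the mere presence of either cannot be told apart. No age of the mice is given in the labels, nor how many mice stand behind an array, so a p-value here covers the spread among 3 such samples and perhaps no more. The question put to these arrays is what losing Dnmt1 in Foxp3-expressing cells does to the transcripts of the separated fraction.

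Values are log2 expression after RMA, the robust multi-array average, and each level below is on that scale. Array medians lay between 5.71 and 5.77 in the knockout and between 5.70 and 5.72 in wild type, and 3 arrays a group set the limit on precision. Across probe sets the Pearson correlation was 0.991 to 0.993 between knockout arrays, and 0.996 to 0.997 between wild type arrays. Between the groups it was 0.984 to 0.992. Knockout replicate 1 correlated at 0.9912 to 0.9915 with the wild type arrays and at 0.9905 with knockout replicate 2. The targeted gene, Dnmt1, had 8.96 ± 0.34 in the knockout and 9.50 ± 0.07 in wild type on one probe set (SD, n = 3, limma adjusted p = 0.162), and 8.74 ± 0.39 and 9.45 ± 0.12 on the other (adjusted p = 0.113). No source used here places these probe sets inside or outside the deleted exons, so the values do not check the deletion. The 14 measured T cell and Treg markers had a mean level of 9.66 to 10.02 on the knockout arrays and 10.10 to 10.19 on the wild type arrays. Transcripts that mark T cells were thus present on every array, with Cd3e at 11.08 to 11.39 in the knockout and 11.38 to 11.47 in wild type. Foxp3, the defining factor of Treg, had 8.84 ± 0.42 in the knockout and 9.50 ± 0.02 in wild type (SD, n = 3, limma adjusted p = 0.151).

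Promoter sequences are shown for the GTPase genes and Irf1 because they hold the elements through which the interferon response is known to act. RefSeq promoter windows of build GRCm38.p6, running from 250 bases before to 50 bases after a gene's start, were found for 8 of the 9 members, all but Iigp1. Each was searched on both strands for the core of the interferon-stimulated response element, which is GAAA, any 2 bases and GAAA again (TTTC and TTTC on the other strand), and for the gamma-activated site TTCNNNGAA, which reads alike on both strands. The 120 bases before the start follow for the 4 GTPase genes and for Irf1, read 5′ to 3′ on the gene's strand, with every match in capitals.
Irgm1, chr11:48871421-48871540, minus strand: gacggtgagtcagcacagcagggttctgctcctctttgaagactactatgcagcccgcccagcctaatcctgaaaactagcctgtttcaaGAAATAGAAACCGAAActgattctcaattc
Igtp, chr11:58199436-58199555, plus strand: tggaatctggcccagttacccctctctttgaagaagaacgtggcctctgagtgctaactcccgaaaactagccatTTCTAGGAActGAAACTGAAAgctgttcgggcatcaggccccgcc
Gbp2, chr3:142620543-142620662, plus strand: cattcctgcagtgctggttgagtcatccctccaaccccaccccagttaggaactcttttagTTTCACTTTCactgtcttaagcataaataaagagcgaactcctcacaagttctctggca
Gbp3, chr3:142559924-142560043, plus strand: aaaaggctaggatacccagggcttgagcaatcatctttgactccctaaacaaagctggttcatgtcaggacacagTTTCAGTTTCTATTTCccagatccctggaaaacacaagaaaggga
Irf1, chr11:53769894-53770013, plus strand: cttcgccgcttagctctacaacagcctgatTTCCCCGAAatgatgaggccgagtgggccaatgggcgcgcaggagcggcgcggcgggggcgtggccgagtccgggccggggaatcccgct

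All 4 GTPase genes in the promoter table held the response element core, and Irgm1 and Gbp3 held 2 overlapping copies. Irf1, Irf8, Ifngr1 and Ifngr2 held none in any of their windows. Of all 32851 promoter windows, 3.44% held the core. The gamma-activated site was found in the windows of Igtp, Irf1 and Irf8, where 8.30% of all windows held it. In Igtp it stands just before the response element, and in Irf1 it is TTCCCCGAA, beginning 90 bases before the start. Gbp3, Irf1 and Irf8 had a second window, which held neither element. A match describes these letters and is not evidence of binding.

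Of the 13 probe sets, 2 rose in the knockout and 0 fell at a limma adjusted p under 0.05, and both that rose measure Iigp1. That is 15.4% of the members, against 1.68% of all 22626 probe sets tested, of which 1.19% rose and 0.486% fell. At an unadjusted p under 0.05 there were 7 of the 13 (5 higher and 2 lower), against 16.6% of all probe sets. These were the pairs of Iigp1, Gbp2 and Ifngr2 and the probe set of Ifngr1, so the 7 are not separate genes. The knockout arrays all lay above the wild type arrays for 3 of the 13, the Iigp1 pair and Ifngr1, against 9.79% of all probe sets. They all lay below the wild type arrays for 2, the Ifngr2 pair, against 13.6%. The median difference of the 13 was 0.124 on the log2 scale, against -0.019 over all probe sets, and the single differences ran from -0.39 to 0.68.

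**Figure D1:**
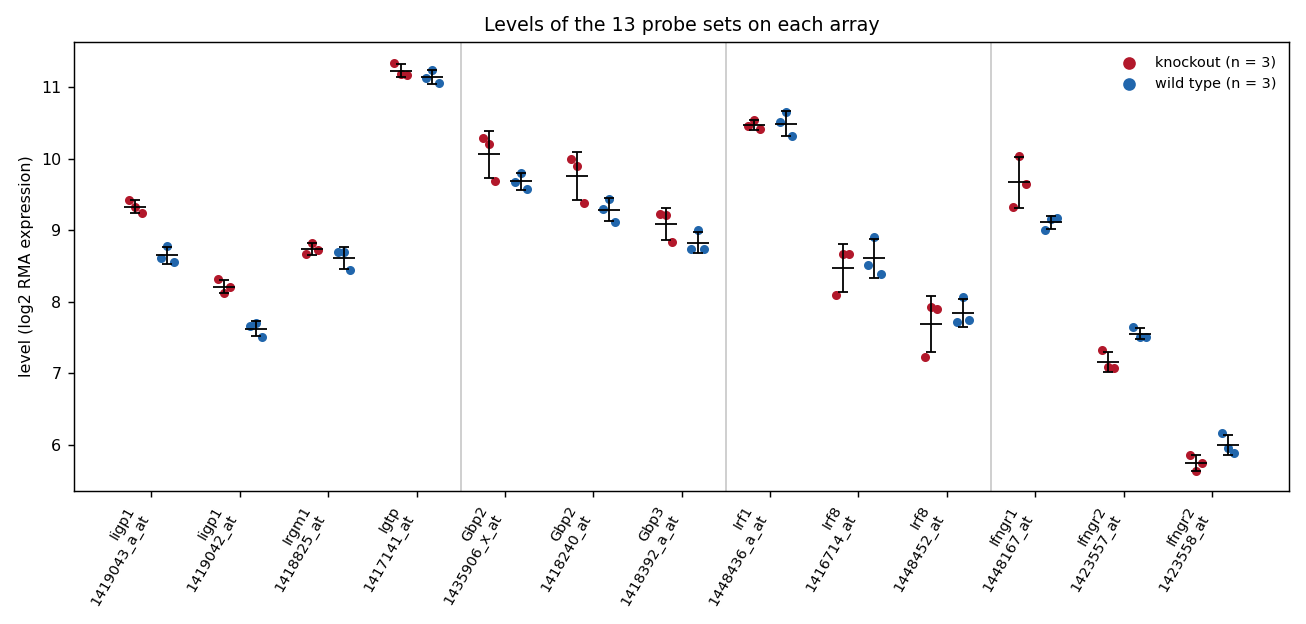
Level of each of the 13 probe sets (log2 RMA expression) on each knockout array (red) and wild type array (blue), with bars for mean and SD (n = 3 each); grey lines part the immunity-related GTPases, the guanylate binding proteins, the regulatory factors and the receptor chains. The red and blue points separate for Iigp1, Ifngr1 and Ifngr2 and overlap for the other members.

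Iigp1 was the member that rose. Its brighter probe set, 1419043_a_at, had levels of 9.42, 9.32 and 9.24 on knockout replicates 1, 2 and 3, against 8.61, 8.78 and 8.55 on the wild type arrays. The lowest knockout array lay above the highest wild type array, and the 3 knockout values spanned less than the gap between the groups. The mean was 9.33 ± 0.09 in the knockout and 8.64 ± 0.12 in wild type (SD, n = 3), a difference of 0.68 (95% interval 0.47 to 0.90), which is 1.61-fold (limma adjusted p = 0.0192). The second probe set, 1419042_at, had 8.31, 8.12 and 8.20 in the knockout, against 7.66, 7.70 and 7.50 in wild type. Its groups did not overlap either, and its difference was 0.59 (95% interval 0.38 to 0.81, 1.51-fold, adjusted p = 0.0270). Probe sets of the same gene on the same arrays are not separate evidence, and the gap between them varied by only 0.08 (SD over the 6 arrays). In RNA of a separated fraction, more cells of a type that expresses a gene and more RNA per cell cannot be told apart.

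With 1 array left out the brighter probe set differed by 0.63 to 0.75 and the dimmer by 0.53 to 0.64. Dropping wild type replicate 1 or 3 ended the call of the brighter (adjusted p = 0.0926 and 0.101). The dimmer lost its call without wild type replicates 1 (0.104), 2 (0.0915) and 3 (0.126) and without knockout replicate 3 (0.0755).

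The regulatory GTPases Irgm1 and Igtp had smaller differences, and neither passed the test. Irgm1 had 8.66, 8.82 and 8.72 in the knockout, against 8.70, 8.69 and 8.44 in wild type. Its groups overlapped, knockout replicate 1 lying below 2 of the wild type arrays, and the difference was 0.12 (95% interval -0.11 to 0.35, adjusted p = 0.578). Igtp, also called Irgm3, had 11.34, 11.18 and 11.17 in the knockout, against 11.12, 11.24 and 11.05 in wild type. Wild type replicate 2 stood within the knockout values, and the difference was 0.096 (95% interval -0.11 to 0.30, adjusted p = 0.641). The upper ends of the intervals of Irgm1 and Igtp, 0.35 and 0.30, lay below the lower ends for both Iigp1 probe sets, 0.38 and 0.47. The difference between the genes' changes was not itself tested.

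Of the other immunity-related GTPases listed for comparison, those measured by a probe set of their own were Irgm2, another regulatory member, and Ifi47. Neither passed the test, and the groups of both overlapped. Irgm2, which neighbours Igtp, had 7.91, 7.61 and 7.43 in the knockout, against 7.54, 7.74 and 7.38 in wild type (difference 0.095, adjusted p = 0.788). Ifi47 had 11.51, 11.29 and 11.18 in the knockout, against 11.26, 11.28 and 11.22 in wild type (difference 0.073, adjusted p = 0.757). Both differences changed sign without knockout replicate 1, which had the highest level of each, to -0.037 for Irgm2 and -0.016 for Ifi47.

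The guanylate binding proteins Gbp2 and Gbp3, large GTPases that collect on pathogen vacuoles, had higher knockout means without passing the test. Gbp2 on 1418240_at had 10.00, 9.89 and 9.38 in the knockout, against 9.30, 9.44 and 9.12 in wild type. Knockout replicates 1 and 2 lay above every wild type array, while replicate 3 lay between wild type replicates 1 and 2. The difference was 0.47 (95% interval 0.081 to 0.86, 1.39-fold, adjusted p = 0.223). The other Gbp2 probe set, 1435906_x_at, had 10.29, 10.21 and 9.68 in the knockout, against 9.67, 9.80 and 9.57 in wild type (difference 0.38, adjusted p = 0.298). Its name ending marks probes that can also match other genes' transcripts. The gap between the Gbp2 probe sets had an SD of 0.06 over the 6 arrays, which does not show what the probes match. Gbp3 had 9.23, 9.21 and 8.83 in the knockout, against 8.74, 9.0 and 8.74 in wild type (difference 0.27, 95% interval -0.041 to 0.57, adjusted p = 0.365). All 3 probe sets thus showed the same pattern, with knockout replicate 3 near the wild type values. Without that array the differences were 0.66, 0.57 and 0.39 (adjusted p = 0.0722, 0.0728 and 0.189), and still none passed.

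**Figure D2:**
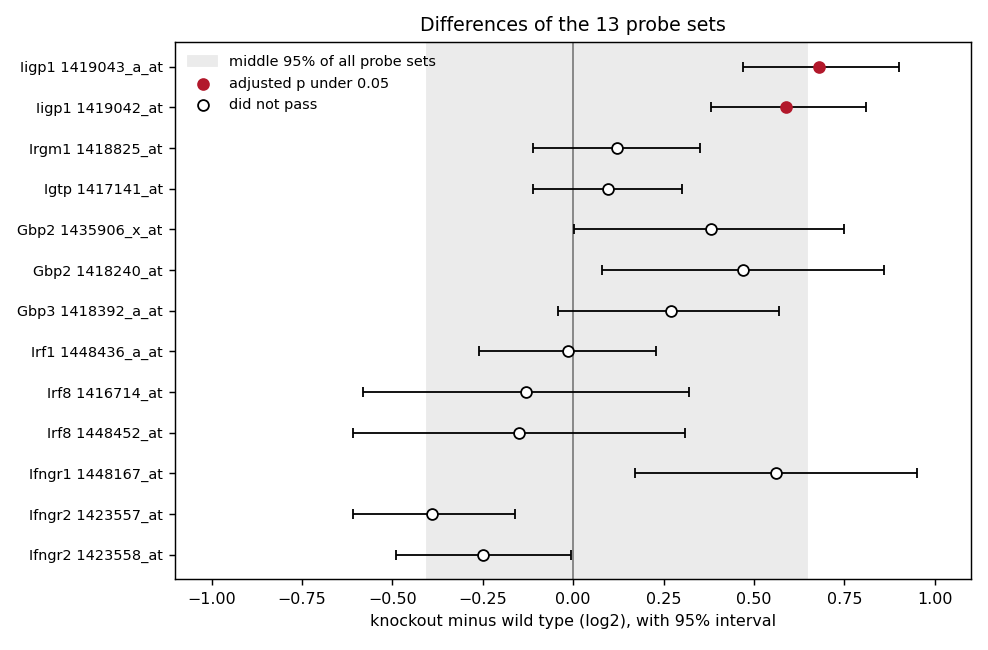
Difference between the group means of each probe set, knockout minus wild type (log2), with its 95% interval; filled points passed the limma threshold and the grey band holds the middle 95% of all probe sets. The Iigp1 points lie at 0.68 and 0.59, with lower interval ends of 0.47 and 0.38, while Irgm1, Igtp, Gbp3, Irf1 and Irf8 have intervals that span 0. The band ends at 0.647, so the Iigp1 point at 0.59 lies inside it.

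In the chromosome 3 cluster that holds Gbp7, Gbp3, Gbp2b and Gbp2 side by side, the differences had either sign. Gbp2b, also called Gbp1, lies between Gbp3 and Gbp2 and fell. Its level was lower than theirs, at percentile 47.4 of all probe sets, against 87.6 to 93.8. RMA compresses low levels, which limits what the size of the fall can tell. Gbp2b had 5.19, 5.03 and 4.37 in the knockout, against 6.19, 6.06 and 6.01 in wild type, with no overlap. The difference was -1.22 (95% interval -1.68 to -0.76, adjusted p = 0.0309), and with 1 array left out it lay between -1.38 and -0.98. Leaving out knockout replicate 2 or any of the 3 wild type arrays ended the call (adjusted p up to 0.135). Gbp7 had 10.17, 10.36 and 9.91 in the knockout, against 10.18, 10.18 and 10.13 in wild type (difference -0.020, adjusted p = 0.951), and its second probe set differed by -0.075. Of the 5 other guanylate binding protein and atlastin genes measured, 1 fell and 0 rose, where 0.516% of all 12393 genes fell and 1.32% rose, each by its brightest probe set. Gbp6, the next by p, had 8.84, 8.99 and 8.87 in the knockout, against 8.62, 8.74 and 8.53 in wild type. Its groups did not overlap, but it did not pass (difference 0.27, adjusted p = 0.186). Such closely related genes can share probe matches, which the deposited summaries cannot show.

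Irf1, the transcription factor made early in the response to interferon gamma, had nearly equal means. Its levels were 10.46, 10.54 and 10.41 in the knockout, against 10.51, 10.65 and 10.31 in wild type. The knockout values lay inside the wild type range, and the difference was -0.015 (95% interval -0.26 to 0.23, adjusted p = 0.960). Its sign turned under cyclic loess (0.037) and without knockout replicate 3 (0.016) or wild type replicate 2 (0.065).

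Irf8, a factor known for the development of B cells, dendritic cells and monocytes, also did not pass, and its SD of 0.40 in the knockout on one probe set was the largest of the 13 probe sets. On 1416714_at it had 8.09, 8.66 and 8.66 in the knockout, against 8.51, 8.91 and 8.39 in wild type (difference -0.13, 95% interval -0.58 to 0.32, adjusted p = 0.776). On 1448452_at it had 7.23, 7.93 and 7.90 in the knockout, against 7.71, 8.07 and 7.74 in wild type (difference -0.15, adjusted p = 0.753). Both probe sets were lowest on knockout replicate 1 and highest on wild type replicate 2. Without knockout replicate 1 the differences were 0.059 and 0.079. The 11 measured B cell markers had means of 6.98, 7.77 and 7.57 on the knockout arrays, against 7.00, 8.29 and 7.35 on the wild type arrays. They too were lowest on knockout replicate 1 and highest on wild type replicate 2, and their part in the Irf8 values was not tested.

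The receptor chains differed in opposite directions, and neither passed the test. Their groups did not overlap, as was so with the knockout higher for 9.79% of all probe sets and lower for 13.6%. Ifngr1 had 9.33, 10.04 and 9.64 in the knockout, against 9.0, 9.15 and 9.17 in wild type. Every knockout array was higher, and the difference was 0.56 (95% interval 0.17 to 0.95, 1.47-fold, adjusted p = 0.161). Ifngr2 on 1423557_at had 7.32, 7.09 and 7.07 in the knockout, against 7.64, 7.50 and 7.51 in wild type (difference -0.39, 95% interval -0.61 to -0.16, adjusted p = 0.105). On 1423558_at it had 5.86, 5.64 and 5.75 in the knockout, against 6.16, 5.95 and 5.88 in wild type (difference -0.25, adjusted p = 0.290). Every knockout value was lower on both probe sets, though on 1423558_at the closest arrays stood at 5.86 and 5.88. Without knockout replicate 1, Ifngr1 was called higher (0.73, adjusted p = 0.0434) and Ifngr2 on 1423557_at lower (-0.47, adjusted p = 0.0454).

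Ifngr2 stands in a row of receptor genes on chromosome 16 with Ifnar2, Il10rb and Ifnar1, of which Ifnar1 and Ifnar2 encode the chains of the type I interferon receptor and Il10rb a chain shared by the interleukin-10 receptor. Ifnar1 had 7.77, 7.63 and 7.37 in the knockout, against 8.02, 7.96 and 7.94 in wild type (difference -0.38, adjusted p = 0.152). Ifnar2 by its brightest probe set, 1427691_a_at, had 8.14, 8.09 and 7.85 in the knockout, against 8.49, 8.30 and 8.40 in wild type (difference -0.37, adjusted p = 0.136). Neither passed. For both, no knockout array reached a wild type array, as was so for 14.0% of all genes. The other Ifnar2 probe set went the other way, with 8.25, 8.25 and 8.19 in the knockout, against 8.16, 8.09 and 8.16 in wild type (difference 0.094). Il10rb overlapped between the groups (difference -0.18, adjusted p = 0.445).

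**Figure D3:**
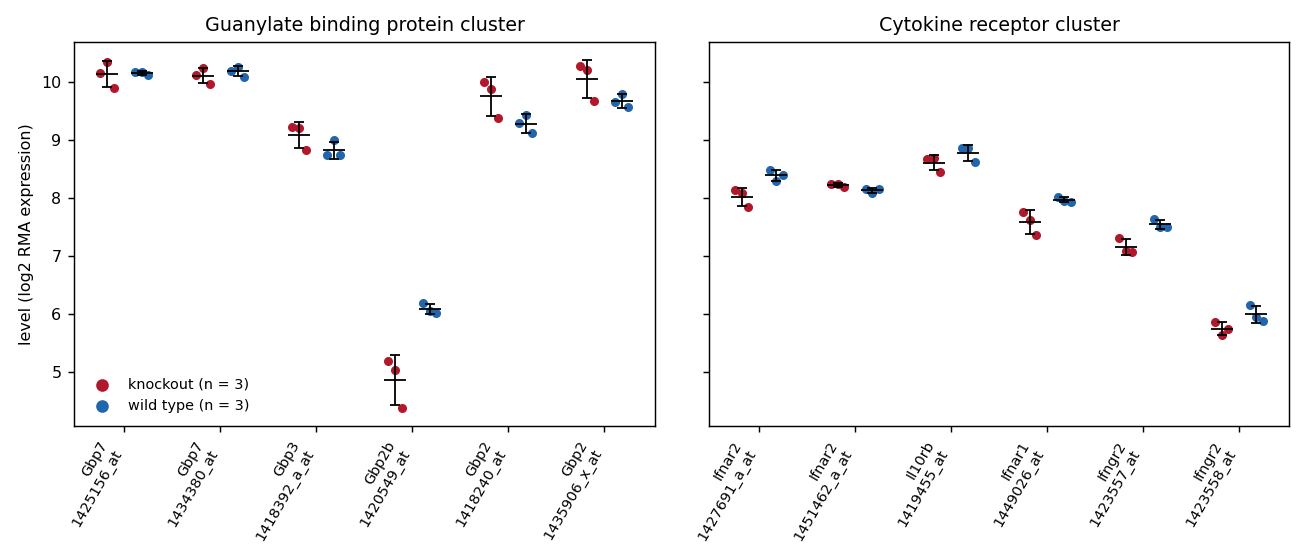
Levels (log2 RMA expression) of genes that lie side by side, in chromosome order, on each knockout (red) and wild type (blue) array, with mean and SD (n = 3 each). In the left panel Gbp2b is lower on every knockout array while its neighbours are not. In the right panel Ifnar1, Ifngr2 and one of the Ifnar2 probe sets are lower on every knockout array.

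Among 16 measured interferon receptor, ligand and JAK-STAT genes, 1 rose (6.25%) and 0 fell, where 1.32% of all genes rose and 0.516% fell. The 1 that rose was Usp18, which encodes a protease that removes ISG15 and dampens type I interferon signalling. It had 9.42, 9.15 and 9.56 in the knockout, against 8.66, 8.71 and 8.42 in wild type (difference 0.78, adjusted p = 0.0340). The list's median difference was 0.030. Ifng, the ligand itself, had 7.45, 8.95 and 8.09 in the knockout, against 7.74, 7.31 and 7.39 in wild type. Knockout replicate 2 was the highest and replicate 1 lay inside the wild type range, and Ifng did not pass (difference 0.68, adjusted p = 0.358). The kinase genes Jak1 and Jak2 differed by -0.013 and 0.046 on their brightest probe sets, and their other probe sets did not pass either, while Socs1, a feedback inhibitor that the same signal induces, differed by 0.064 (adjusted p = 0.725). Of 7 other genes for interferon regulatory factors or proteins that bind them, 0 passed. Irf7, the factor that amplifies type I interferon, had 8.90, 9.03 and 9.17 in the knockout, against 8.53, 8.67 and 8.54 in wild type (difference 0.46, adjusted p = 0.0679). Irf2bp1, which encodes a protein that binds Irf2, differed by -0.25 (adjusted p = 0.191).

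Of 23 measured further targets of interferon gamma, 1 rose (4.35%) and 0 fell, where 1.32% of all genes rose and 0.516% fell. The 23 repeat Irgm2 and Socs1 from lists above. The 1 that rose was Casp1, the inflammatory caspase gene. It had 8.08, 8.74 and 8.48 in the knockout, against 7.27, 7.23 and 7.23 in wild type (difference 1.19, adjusted p = 0.0180). The next by p was Psmb9, an immunoproteasome subunit gene, with 11.19, 11.03 and 10.91 in the knockout, against 10.57, 10.65 and 10.61 in wild type (difference 0.43, adjusted p = 0.0723). Its groups did not overlap, as was so with the knockout higher for 6 of the 23, against 11.0% of all genes, while 0 of the 23 were lower throughout, against 14.0%. The median difference of the list was 0.12, against -0.014 over all genes. Casp1 lost its call when knockout replicate 3 or any wild type array was dropped (adjusted p up to 0.0898). Usp18 lost it when any array other than knockout replicate 2 was dropped (up to 0.141).

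The targets of type I interferon gave a larger median than those of interferon gamma. Of 28 measured genes 5 rose and 0 fell, or 17.9% higher, against 1.32% of all genes higher and 0.516% lower. The median difference was 0.45, and 17 of the 28 had every knockout array above every wild type array, against 11.0% of all genes. This list shares Usp18, Stat2, Irf7 and Irf9 with lists above, and no test compared the lists. Isg20, an exonuclease gene, had 9.28, 9.21 and 9.28 in the knockout, against 8.53, 8.70 and 8.52 in wild type (difference 0.67, adjusted p = 0.0161). Lgals3bp, which encodes a secreted galectin-3 binding glycoprotein, differed by 0.71 (adjusted p = 0.0220), and the oligoadenylate synthetase genes Oas2 and Oas1a by 0.98 and 0.92 (adjusted p = 0.0350 and 0.0420). The count of 5 became 9, 3 and 1 without knockout replicates 1, 2 and 3, and 0, 1 and 0 without wild type replicates 1, 2 and 3.

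**Figure D4:**
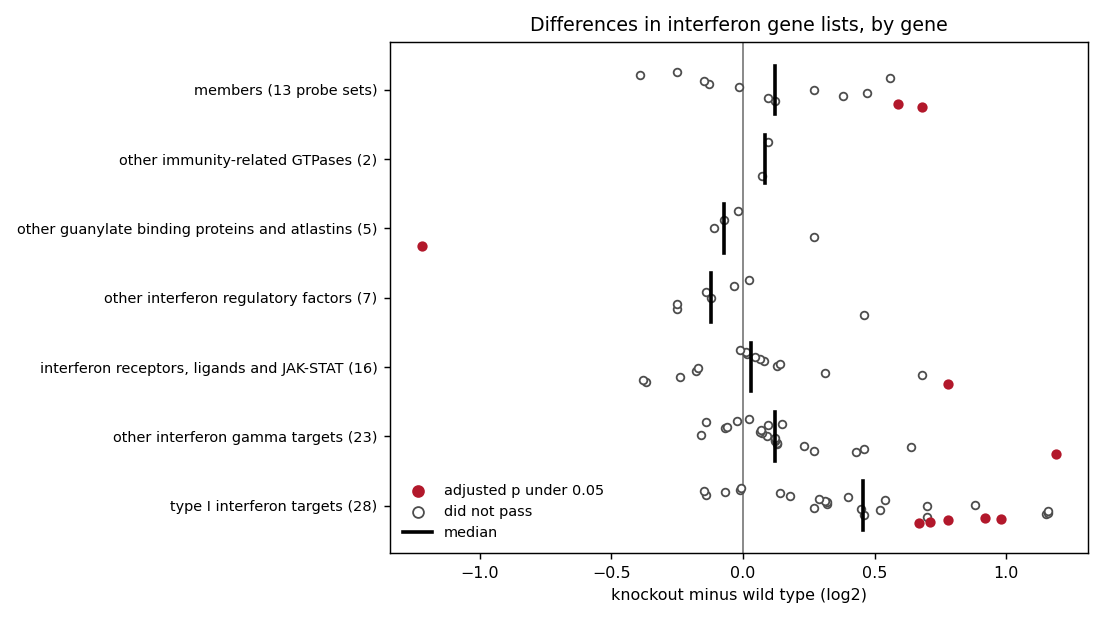
Knockout minus wild type difference (log2) of each member probe set and of each gene of the interferon lists, by its brightest probe set, with the number measured in brackets; filled points passed the limma threshold and black bars are medians. The median is 0.124 for the members, 0.12 for the other interferon gamma targets and 0.45 for the type I interferon targets.

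The genes whose pattern over the 6 arrays was most like that of Iigp1 were Isg20, Ada, Hamp2, Ell2 and Cdkn2d. Likeness was the root mean square distance between profiles centred on their wild type means, over 6921 genes at or above the median level. The distance was 0.060 for Isg20, 0.072 for Ada, 0.079 for Hamp2, 0.090 for Ell2 and 0.115 for Cdkn2d, in log2 units. The level of Isg20 by array is given above. Ada, the adenosine deaminase gene, had 7.08, 7.01 and 6.73 in the knockout, against 6.30, 6.40 and 6.16 in wild type. Ell2, a gene for an elongation factor of RNA polymerase II, differed by 0.60 and Cdkn2d, a cyclin-dependent kinase inhibitor gene, by 0.55. The distance chose these genes for a difference like that of Iigp1, so their differences are given as a description only.

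Of the neutrophil markers 56.2% were called higher, where 1.32% of all genes were called higher and 0.516% lower. The T cell and Treg markers had 21.4% called lower, and all 14 of their differences were below 0. Among cytotoxic T and natural killer cell markers 11.8% were called higher and 5.88% lower. The monocyte and macrophage markers had 3.7% called higher, with 24 differences above 0 and 3 below. Each of 16 measured neutrophil markers was higher on average in the knockout, and 9 passed the test, a count that was 11, 10 and 5 without knockout replicates 1, 2 and 3 and 0, 1 and 0 without wild type replicates 1, 2 and 3. With a trended, robust variance 2 passed. The list's mean level was 7.65, 9.61 and 8.28 on knockout replicates 1, 2 and 3, against 5.92, 6.14 and 5.77 on the wild type arrays. Of the 27 monocyte and macrophage markers 1 rose, Cd14 (difference 1.29), and the list's mean was 5.88, 6.42 and 5.98 in the knockout, against 5.40, 5.57 and 5.12 in wild type. The 11 B cell markers had 0 calls, with 5 differences above 0 and 6 below and a median of -0.12. The 12 dendritic cell markers also had 0 calls, with means of 6.90 to 7.15 in the knockout and 6.67 to 6.85 in wild type. The 17 cytotoxic T and natural killer cell markers had 2 genes higher, the receptor genes Ncr1 (2.50) and Klrc1 (1.68), and 1 lower, Klra8 (-2.12), with means of 7.81 to 8.53 in the knockout and 7.80 to 7.99 in wild type. Of the 14 T cell and Treg markers Nrp1, Ikzf2 and Il2ra fell (-0.80, -0.77 and -0.64), and the list's mean was 10.02, 9.76 and 9.66 in the knockout. With 1 array left out, the higher calls numbered 0 to 4 among monocyte and macrophage markers and 0 to 10 among cytotoxic markers (10 without knockout replicate 1), and the lower calls 0 to 3 among T cell and Treg markers (0 without knockout replicate 3 or any wild type array). RMA values have no zero, so no marker can be called absent.

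**Figure D5:**
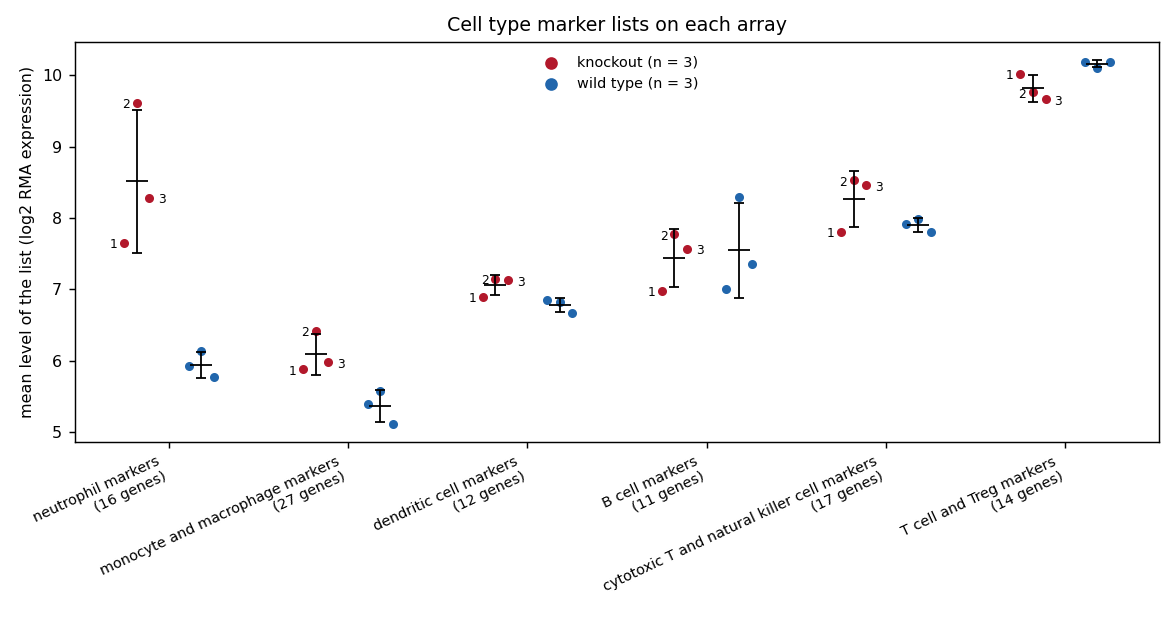
Mean level of each cell type marker list (log2 RMA expression) on each knockout array (red, with its replicate number) and wild type array (blue), with mean and SD (n = 3 each). The neutrophil list is at 7.65, 9.61 and 8.28 in the knockout and at 5.77 to 6.14 in wild type.

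The neutrophil, monocyte, dendritic, B cell and cytotoxic lists all had replicate 2 highest and replicate 1 lowest among the knockout arrays. This order was shared by 3 of the 13 probe sets, those of Irgm1 and Ifngr1 and the dimmer Irf8 probe set, and by 18.4% of all probe sets. Ifng had it too. The part of neutrophils and monocytes in the Ifngr1 difference was not tested, and without knockout replicate 2 that difference was 0.37 (adjusted p = 0.214). Both Iigp1 probe sets were highest on knockout replicate 1, by small margins over the other knockout arrays. Without knockout replicate 2 they differed by 0.69 and 0.64 (adjusted p = 0.0396 and 0.0382), with the neutrophil list still above wild type on the other knockout arrays, and the part of these cells in the Iigp1 difference was not tested. The order of the T cell and Treg list, with replicate 1 highest and replicate 3 lowest, was shared by 6 of the 13 and by 16.1% of all probe sets. These were the Gbp2 and Gbp3 probe sets, Igtp, the brighter Iigp1 probe set and the brighter Ifngr2 probe set.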

How the data were processed

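Biotin-labelled total RNA was hybridised to 1-colour oligonucleotide arrays, per the labels' protocols. The deposited values are log2 expression per probe set made by the authors with RMA, per the submitters' processing notes; no source used here gives its version or settings. RMA corrects background and normalises between arrays, so that low levels are compressed and total RNA per cell is not measured. The lowest value was 1.93 and the highest 14.7.

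Gene symbols came from the platform annotation and can be old. Of 22690 probe sets, 64 were controls and were left out of the tests, 20380 had 1 symbol, 691 several and 1555 none. Of those with 1 symbol, 20351 matched a RefSeq table of GRCm38.p6 by gene ID. Groups were compared over the other 22626 probe sets by the moderated test of limma 3.58.1 (R 4.3.3; lmFit, then eBayes), two-sided, with no filter on dim probe sets. Benjamini-Hochberg adjustment ran over all of them, and an adjusted p under 0.05 was called. Differences are knockout minus wild type. For gene lists each of 12393 genes was read from its brightest probe set. Lists were described by counts and medians, with no set test.

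The members, lists and tests were chosen with earlier results of these data known. Named genes were all members, the called genes of each pathway list with the lowest p (up to 4, or the lowest 2 where fewer than 2 passed) and the 5 genes most like Iigp1. Genes named after their values were seen are Dnmt1, Foxp3, Cd3e, Cd14, Gbp7, Ifnar1, Il10rb, Ifng, Jak1, Jak2, Socs1, Oas1a, Nrp1, Ikzf2, Il2ra, Ncr1, Klrc1, Klra8, Smim3, Dctn4 and Rbm22. The limma test was tried on simulated data with known shifts. Each probe set was drawn separately there, so the trial cannot give the rate of false calls where probe sets vary together. Plots used Python 3.11.15 and matplotlib 3.10.9.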

Additional observations from a re-analysis of the deposited data

How the results depend on the processing

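Under each of 16 alternatives that gave a value, the differences of Iigp1, Irgm1, Igtp, Gbp2, Gbp3 and Ifngr1 stayed positive and those of Ifngr2 negative; the brightest-probe-set alternative gave none for the dimmer Iigp1 and Ifngr2 probe sets and for Gbp2 on 1418240_at. The 2 member calls became 1 with the brightest probe set or the mean of the probe sets of a gene, which leave 1 value for Iigp1, and 1 with the replicate block. The sample titles carry replicate numbers but do not say that equal numbers are paired. The deviations of same-numbered arrays correlated at -0.076, 0.114 and -0.010, and those of different-numbered arrays at -0.114 to 0.123. With 3 arrays a group these values cannot settle whether the arrays are paired. The block gave 218 called probe sets against 380. Under it the brighter Iigp1 probe set had limma adjusted p = 0.0468 and the dimmer 0.0679. With the brightest probe set 236 were called, over fewer features. Against a difference of 0.5 rather than 0 (treat), 0 members and 31 probe sets passed. Leaving out 1 array gave 0 to 3 members higher, 0 to 1 lower and 29 to 756 called probe sets in all; every wild type array left out lowered the count, and so did knockout replicates 2 and 3. The cause was not tested. Signs turned, below the threshold in every case, for Irf1 (0.037 under cyclic loess, and -0.11 to 0.065 with 1 array left out), and with 1 array left out for Irf8 (-0.24 to 0.059 on the brighter probe set and -0.27 to 0.079 on the other), Ifi47 (-0.016 to 0.15) and Irgm2 (-0.037 to 0.21). Under the block the type I interferon list had 1 call in place of 5, and 0 by treat. The neutrophil list had 2 calls in place of 9 with a trended, robust variance and 1 by treat. With 3 arrays a group, the 95% intervals of Gbp2 were 0.081 to 0.86 on 1418240_at and 0.0026 to 0.75 on 1435906_x_at. That of Ifngr1 was 0.17 to 0.95.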

Other observations

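The gene that follows Iigp1 in the reference order, Smim3, which encodes a small integral membrane protein, was also called higher. Its mean level was 5.73 ± 0.14 in the knockout and 4.83 ± 0.28 in wild type (SD, n = 3), a difference of 0.89 (95% interval 0.55 to 1.24, limma adjusted p = 0.0340). The next genes in that order, Dctn4 and Rbm22, differed by 0.034 and -0.067 and did not pass. Smim3 was singled out after its values were seen, among the measured genes within 3 places of a member. Its call was not followed through the alternatives or with an array left out.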
